A study of Mus musculus with 14 samples.

Results

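Translation initiation and elongation factors are the proteins that load the ribosome onto an mRNA, find its start codon and then feed it with aminoacyl-tRNA. Their genes were followed here in mouse CT26 colorectal tumors that had or had not responded to anti-PD-1. Members were all genes with a mouse symbol beginning with Eif1 to Eif6, Eef1 or Eef2, without the pseudogenes marked -ps. This gave 69 genes of 53801 in the expression files, of which 65 were counted highly enough to be tested. The others were Eif2s3y, Eif4e1b, Eif4ebp3 and Eif2c5, which is annotated as a non-coding gene. The question was whether the lower level of cytosolic ribosomal protein genes in responders, another 77 genes, is shared by these factors, whose mRNAs are longer.

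The tumors came from CT26, a BALB/c colon carcinoma line, carrying a DNA barcode library and injected under the skin of both flanks of syngeneic female Balb/c mice aged 6 to 8 weeks, 250000 cells per site. From day 7 the mice received 200 µg of control IgG or anti-PD-1 every 3 days, 5 doses in all, and tumors were taken 3 days after dosing ended. Of the 3 groups, control IgG had 5 tumors of 4 mice (14L, 14R, 16R, 17R and 20R), anti-PD-1 responders had 5 tumors of 4 mice (24L, 26R, 30L, 30R and 35L) and anti-PD-1 non-responders had 4 tumors of 3 mice (29L, 32R, 33L and 33R). The number names the mouse and the letter the flank. A responder or non-responder was a treated tumor labelled by its final size, so response was not assigned at random, and tumors of the same mouse shared a host. Values for single tumors are given below in the order of this list.

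Each cycle of protein synthesis begins with eIF2, which carries the initiator tRNA to the small ribosomal subunit, and with eIF4F, the complex of cap-binding, helicase and scaffold proteins that recruits the mRNA. eIF3 is the large multi-subunit platform that joins them, and eIF5B brings in the large subunit. In elongation, eEF1A delivers aminoacyl-tRNA, eEF1B recharges eEF1A with GTP, and eEF2 moves the ribosome along. Several of these mRNAs, like those of ribosomal proteins, belong to the TOP class, which start with a C followed by a run of pyrimidines and whose translation is controlled through mTORC1 and Larp1.

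The libraries held 33237744 to 48481461 expected counts. Values are CPM (counts scaled to library size with TMM) when a gene is compared between tumors, and TPM (transcript abundance, which allows for length) when genes are compared with each other. Tumor 33R stood apart from all others in its relation to gene length. Its log2 CPM fell by 0.232 for each doubling of effective length relative to the average tumor, whereas the slopes of the remaining tumors lay between -0.071 and 0.06, with all 5 responders between 0.042 and 0.06. The fragment length that the effective lengths in the files imply (median over long genes) in non-responder libraries was 277.5 to 287.8 bases, against 268.7 to 277.7 in control IgG and 269.5 to 277.0 in responder libraries. The main results are therefore given also without 33R and with the length trend removed. Because these are bulk tumors, fewer cells of a type and less RNA per cell cannot be told apart.

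The labelled tumor was checked against its markers. The mesenchymal gene Vim stood at 2351 to 5712 TPM in the 14 tumors, while the epithelial genes Epcam and Cdh1 reached at most 3.55 and 3.46 TPM and the epithelial keratin genes Krt8, Krt18 and Krt19 at most 17.1, 16.7 and 7.62 TPM. Markers of some host cells differed between the groups. Of 9 T cell markers, 8 were higher in responders than in non-responders, with summed levels of 62.0 to 116.7 TPM against 29.2 to 41.7 TPM, and 29.9 to 62.5 TPM in control IgG tumors. Of 6 erythroid markers, 5 were lower, with summed levels of 217.3 to 1016 TPM in responders, 1311 to 6576 TPM in non-responders and 243.0 to 6487 TPM in control IgG tumors. Without 33R, 6 T cell markers and 1 erythroid marker were called. Of 8 macrophage markers, 1 was higher in responders, and their sum was 1827 to 2457 TPM against 1328 to 1633 TPM in non-responders and 1478 to 1710.0 TPM in control IgG tumors. Of 7 fibroblast markers (783.2 to 1378 TPM in responders, 533.3 to 1195 TPM in non-responders and 663.9 to 961.3 TPM in control IgG) and of 5 tested neutrophil markers (33.7 to 133.3, 77.9 to 198.4 and 73.9 to 268.8 TPM), 1 each was higher. These lists were mixed, with 2 fibroblast and 3 neutrophil markers below 0 and median log2 fold changes of 0.279 and -0.637. Over all genes tested, 5.08% were called higher and 4.82% lower in responders than in non-responders. None of 9 keratinocyte markers (13.2 to 986.4, 102.8 to 273.7 and 7.1 to 712.4 TPM) or 9 skeletal muscle markers (30.6 to 499.4, 105.2 to 736.8 and 143.5 to 1339 TPM) was called. No marker was at 0 throughout a group. The part of these cells in the results below was not tested.

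To show where these mRNAs begin, the windows of 30 bases at the annotated start (10 before it and 20 from it) are given for members that turned out lower in responders and had an entry in the RefSeq promoter table (GRCm38.p6): Eef1a1 (chr9:78481705-78481734, minus strand), Eif3f (chr7:108934405-108934434, plus strand), Eef1b2 (chr1:63176821-63176850, plus strand), Eif2s2 (chr2:154892887-154892916, minus strand) and Eif2a (chr3:58525811-58525840, plus strand). Capitals mark a run of at least 8 pyrimidines that opens with C within 10 bases of the start, read on the strand of the gene.
Eef1a1: ctccgCCCTCTTCCCgagggtgggggagaa
Eif3f: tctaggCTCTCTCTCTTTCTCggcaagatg
Eef1b2: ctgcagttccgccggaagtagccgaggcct
Eif2s2: aaggttggctttactgtacgcctgcgcttt
Eif2a: gactccgcccgctccggagagggagggcga

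Such a run was present in 9 of the 53 members in the table (17.0%), in 23 of 57 ribosomal protein genes (40.4%) and in 2467 of all 27025 genes (9.13%). Of the 5 members shown, 2 had it. Another 5 tested members had the run and were not lower in responders by the test: Eif2b2, Eif2b5, Eif2s3x, Eif3l and Eif4enif1. Absence says only that the letters are not in this window, since annotated starts can miss the main start used.

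For the member that was higher in responders, Eif2ak2, the window shown (chr17:78882535-78882564, minus strand) lies just inside the gene, and capitals mark a match to GAAANNGAAA, the core of the element through which interferon-induced genes are known to be switched on. The match opens 18 bases after the annotated start.
Eif2ak2: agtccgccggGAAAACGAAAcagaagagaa

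On either strand, GAAANNGAAA was found between 250 bases before and 50 after the start in 4 members (7.55%: Eif2ak2, Eif2s1, Eif2s3x and Eif3a), in 12.3% of the ribosomal protein genes and in 3.99% of all genes. In Eif2s3x it overlaps the pyrimidine run.

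Per length, the factors differed widely in level. Eef1a1, the eEF1A gene used by most cells, was the highest at 15430.3 TPM on average over the 14 tumors. Eef1b2 (1934 TPM) and Eef2 (1931 TPM) followed, and their averages did not differ beyond the spread between tumors. Eif5a (1035 TPM), Eif3h (798.5 TPM), Eif4a1 (742.1 TPM) and Eif1 (704.9 TPM) came next. The eIF2α kinases were low, from Eif2ak2 at 21.8 TPM to Eif2ak4 at 4.88 TPM, and Eef1a2, the eEF1A isoform of muscle and neurons, stood at 2.92 TPM. The genes of the 14 eIF3 subunits and their copies were not at equal levels, ranging from Eif3h at 798.5 TPM to Eif3j1 at 10.8 TPM. Eef1a1 alone made 51.8 to 56.3% of the summed TPM of all members in control IgG tumors, 51.6 to 56.5% in non-responders and 46.5 to 51.4% in responders. The summed TPM of the members was 22268 to 28248 in responders, below the 30485 to 35200.2 of control IgG tumors and the 29441 to 31731 of non-responders, without overlap. Since Eef1a1 weighs so much in this sum, it does not speak for the members as a class. On the log2(TPM + 1) scale, 39 of the 65 tested members were above 0 in responders against non-responders.

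In responders against non-responders, 10 of the 65 tested members were lower and 1 was higher (edgeR quasi-likelihood test with Benjamini-Hochberg adjustment over all 16287 genes tested, adjusted p under 0.05). Over all genes tested, 4.82% were called lower and 5.08% higher. Genes of eEF1 and eIF3 made up 6 of the 10 lower members, and the others were Eif2s2, Eif2a, Eif2b3 and Eif4ebp1. The log2 fold changes of 52 members were below 0, with a median of -0.194 beside 0.006 for all genes. The 5 responder tumors lay below every non-responder tumor for 11 members and above every one for 2, while 6.04% of all genes were lower and 6.8% higher without overlap. The count of lower members depended on single tumors. It was 2 without 33R, where 1.74% of all genes were called lower, 2 without 24L, 2 without 30R and 3 without 32R, and it was 17 without 33L. For the fits without 24L, 30R, 32R or 33L the share of all genes called is not given, so these counts cannot be set against it. On the log2(TPM + 1) scale 3 members were lower (Eef1b2, Eef1g and Eif3e) and 3 higher, beside 191 and 1969 of all 16287 genes.

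**Figure D1:**
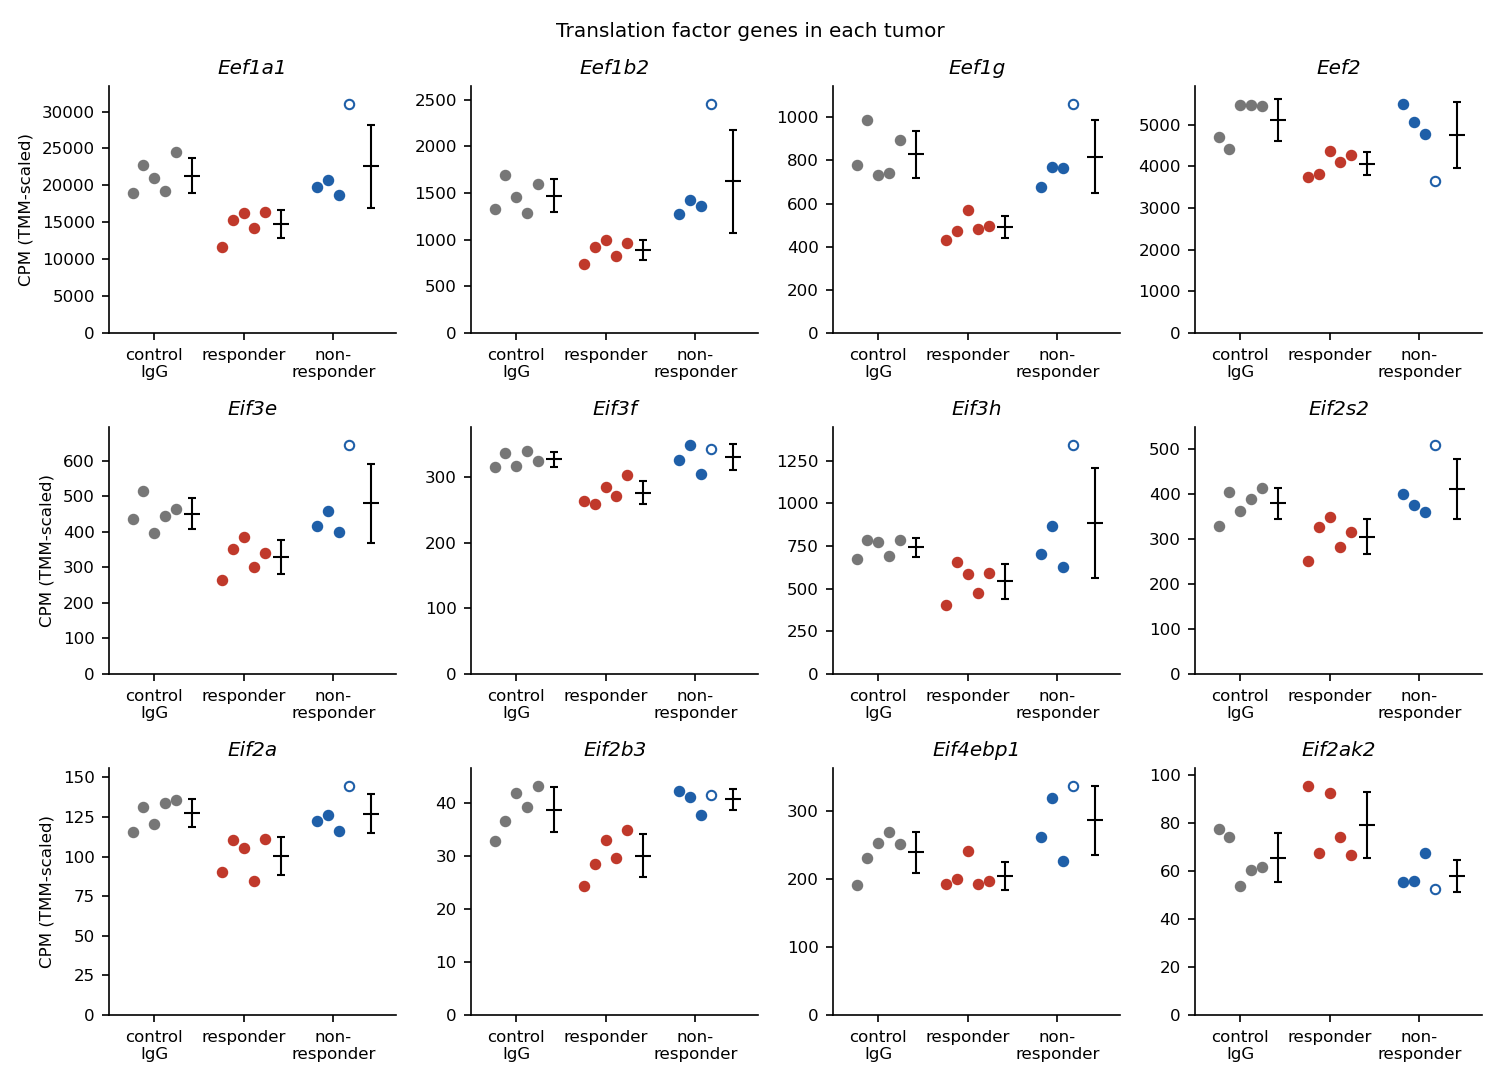
CPM of 12 translation factor genes in each tumor (y axis, linear from 0), by group (x axis). Each point is 1 tumor, the open point is non-responder 33R, and the bar is the group mean with its SD (n = 5, 5 and 4). Responders lie below every other tumor for Eef1a1, Eef1b2, Eef1g, Eif3e, Eif3f and Eif2a, and 33R is the highest tumor for Eef1a1, Eef1b2, Eef1g, Eif3e, Eif3h, Eif2s2, Eif2a and Eif4ebp1.

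The genes named for the elongation factor eEF1 showed the clearest difference. Of the 6 tested genes in this set, 3 were lower in responders than in non-responders, and all 6 had log2 fold changes below 0 (median -0.631). The set and its median include Eef1e1 (-0.65), whose product is a partner of the aminoacyl-tRNA synthetase complex. Without 33R, 2 were lower, 5 were below 0 and the median was -0.368, with Eef1a2 at 0.74 (adjusted p = 0.708).

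Eef1b2 (chr1:63176825-63180486 in GRCm38), a subunit of eEF1B, the exchange factor of eEF1A, had 1324, 1696.5, 1455, 1282 and 1595.5 CPM in control IgG, 739.2, 921.5, 995.5, 823.6 and 960.5 CPM in responders and 1274, 1420.3, 1364 and 2451 CPM in non-responders. Every responder was below every other tumor, and 33R was far above the rest of its group. The log2 fold change was -0.87 (SE 0.17, edgeR adjusted p = 0.0114) against non-responders and -0.73 (SE 0.16, adjusted p = 0.0102) against control IgG. It remained called when any single tumor was left out (-0.59 without 33R, adjusted p = 0.0178), and in all 12 alternative fits.

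Eef1g (chr19:8967041-8978479), the eEF1B subunit that anchors the complex, had 779.6, 987.1, 733.6, 741.0 and 894.9 CPM in control IgG, 432.3, 472.5, 570.1, 482.4 and 496.1 CPM in responders and 675.4, 771.0, 763.2 and 1059.6 CPM in non-responders. No responder reached the lowest tumor of the other groups. Fold changes on the log2 scale were -0.74 (SE 0.13, adjusted p = 0.00793) against non-responders and -0.75 (SE 0.13, adjusted p = 0.00214) against control IgG in edgeR. Like Eef1b2, it was called without any single tumor (-0.57 without 33R, adjusted p = 0.0203) and in all 12 alternative fits. The expected counts of Eef1g were not whole numbers (lowest 16211.24), a sign that RSEM divided some of its reads with other genes.

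Eef1a1 (chr9:78478449-78489151), which brings aminoacyl-tRNA to the ribosome, had 19012, 22821, 21025, 19251 and 24575 CPM in control IgG, 11653, 15308, 16227, 14172 and 16389 CPM in responders and 19841, 20780.1, 18739 and 30983 CPM in non-responders. Responders again lay below all other tumors. The log2 fold change was -0.61 (SE 0.15, adjusted p = 0.0233) against non-responders and -0.53 (SE 0.14, adjusted p = 0.0237) against control IgG. Against non-responders the call was lost without 33R (-0.41, adjusted p = 0.0614), without 24L (0.06) or without 30R (0.0571), whereas against control IgG it held without 33R (adjusted p = 0.00379). Eef1a1 has many processed pseudogenes, between which RSEM divides shared reads, so its level is less certain than that of a gene with a unique sequence.

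The other genes of the eEF1 set did not pass. Eef1d, the remaining exchange subunit, had a log2 fold change of -0.25 (SE 0.11, adjusted p = 0.158) against non-responders and -0.22 (adjusted p = 0.189) against control IgG. Eef1e1, a partner of the aminoacyl-tRNA synthetase complex named here after its values were seen, lay just outside the threshold at -0.65 (SE 0.20, adjusted p = 0.0503). Eef1a2 had 20.0 CPM in control tumor 14R and 12.2 CPM in 33R, and 0.291 to 6.43 CPM in the other 12 tumors, and it was not called (log2 fold change -0.38, SE 0.90, adjusted p = 0.822). The same pair, 14R and 33R, had the highest mean log2 CPM of the 9 skeletal muscle markers, at 6.72 and 5.89 against 1.18 to 5.37 in the others. Whether muscle in the sample bears on Eef1a2 was not tested.

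Eef2 (chr10:81176631-81182498), which translocates the ribosome, had 4698, 4419.8, 5474, 5464 and 5453 CPM in control IgG, 3736, 3817.5, 4369, 4094 and 4279.6 CPM in responders and 5485, 5052, 4779 and 3635 CPM in non-responders. Responders were below all control IgG tumors, and below all non-responders other than 33R, which was the lowest tumor of all. The log2 fold changes were -0.22 (SE 0.11, adjusted p = 0.22) against non-responders and -0.33 (SE 0.11, adjusted p = 0.0565) against control IgG, neither called. Without 33R they were -0.31 (adjusted p = 0.0594) and -0.33 (adjusted p = 0.011). Of the 6 genes of enzymes that modify eEF1A or eEF2, none was called in either comparison. Eef2k, the kinase that inactivates eEF2, had a log2 fold change of 0.17 (SE 0.14, adjusted p = 0.465) against non-responders and 0.25 (SE 0.13, adjusted p = 0.23) against control IgG.

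Of 14 tested eIF3 genes, 3 were lower in responders than in non-responders, 12 had values below 0 and the median was -0.261. Without 33R none was called, and all 14 had values below 0 with a median of -0.184. Eif3e (chr15:43250058-43282719), a subunit of the regulatory part of eIF3, had 435.5, 515.4, 395.1, 443.7 and 464.0 CPM in control IgG, 265.6, 352.4, 385.4, 300.6 and 340.2 CPM in responders and 417.1, 458.0, 399.8 and 643.0 CPM in non-responders. Responders were below all other tumors. Fold changes on the log2 scale were -0.54 (SE 0.14, edgeR adjusted p = 0.0291) and, against control IgG, -0.45 (SE 0.13, adjusted p = 0.0372). The first was lost without 33R (-0.35, adjusted p = 0.0874), 24L (0.0759), 30R (0.0718) or 32R (0.0581).

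Eif3f (chr7:108934417-108942951), a subunit known also for binding mTOR, had 315.3, 336.3, 317.1, 339.7 and 324.7 CPM in control IgG, 263.8, 258.0, 284.0, 271.0 and 302.9 CPM in responders and 325.5, 348.0, 303.9 and 341.8 CPM in non-responders. In CPM, responder 35L lay just under non-responder 33L, with no overlap, and 33R did not stand apart. In TPM, 33R was the lowest tumor at 131.4, against 142.7 to 169.6 in responders. On the log2(TPM + 1) scale the change was -0.0 against non-responders (limma adjusted p = 0.985). Against control IgG it was -0.11 (limma adjusted p = 0.388). The log2 fold changes were -0.26 (SE 0.07, adjusted p = 0.0329) against non-responders and -0.24 (SE 0.07, adjusted p = 0.0246) against control IgG. The first call was lost in 7 of 14 fits that left out a tumor, with adjusted p up to 0.0898 (without 32R); the others were 17R (0.0508), 24L (0.0818), 26R (0.064), 30L (0.0501), 30R (0.0782) and 33R (0.0728).

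Eif3h (chr15:51786558-51865523) had 674.1, 785.1, 776.3, 692.7 and 783.0 CPM in control IgG, 402.8, 658.3, 588.5, 472.7 and 591.2 CPM in responders and 705.6, 866.8, 626.2 and 1341 CPM in non-responders. Responder 26R lay above non-responder 33L, so these groups overlapped, while all responders were below control IgG. Tumor 33R was the highest. The log2 fold change was -0.71 (SE 0.19, adjusted p = 0.0347) against non-responders and -0.45 (SE 0.18, adjusted p = 0.118) against control IgG. Without 33R the first was -0.42 (adjusted p = 0.108), and without 24L, 30R, 32R or 30L the adjusted p was 0.0881, 0.0826, 0.0696 or 0.0511.

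None of the remaining eIF3 genes was called. They included the long core subunits Eif3a, which had a log2 fold change of 0.18 (SE 0.17, adjusted p = 0.531), and Eif3c at -0.20 (SE 0.13, adjusted p = 0.327), and the short Eif3k at -0.19 (SE 0.12, adjusted p = 0.295). Eif3a had 280.2 CPM in 33R and 463.4 to 649.3 CPM in the other 13 tumors. Reads of Eif3j1 and Eif3j2, near-identical copies, may have been split between them.

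Of the 5 tested genes of eIF2 and other initiator tRNA carriers, 2 were lower in responders than in non-responders and all 5 had values below 0 (median -0.341). Without 33R none was called and the median was -0.173, and on the log2(TPM + 1) scale it was -0.058 with 2 genes above 0. Eif2s2 (chr2:154871410-154892935), the β subunit of eIF2, had 329.2, 404.7, 363.0, 389.9 and 413.7 CPM in control IgG, 251.9, 326.6, 350.4, 282.8 and 317.2 CPM in responders and 401.4, 375.4, 360.9 and 509.3 CPM in non-responders. Responders were below all non-responders but overlapped control IgG tumor 14L. Fold changes on the log2 scale were -0.43 (SE 0.12, adjusted p = 0.0358) and, against control IgG, -0.31 (SE 0.11, adjusted p = 0.0782). The first was lost without 33R (-0.29, adjusted p = 0.114), 24L (0.0895), 30R (0.0847), 32R (0.0562), 35L (0.0538) or 17R (0.0527). On the log2(TPM + 1) scale the change against non-responders was -0.17 (limma adjusted p = 0.139).

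Eif2a (chr3:58525821-58557501), an initiator tRNA carrier distinct from eIF2, had 115.4, 131.4, 120.6, 133.6 and 135.5 CPM in control IgG, 90.5, 110.3, 105.6, 84.6 and 110.9 CPM in responders and 122.4, 126.0, 115.9 and 144.4 CPM in non-responders. Its responders were below all other tumors. The log2 fold change was -0.34 in both comparisons (SE 0.10 and adjusted p = 0.0398 against non-responders, SE 0.09 and adjusted p = 0.0244 against control IgG). On the log2(TPM + 1) scale these changes were -0.08 and -0.20 (limma adjusted p = 0.486 and 0.0873). In edgeR the results were less stable against non-responders. The first call was lost in 7 of 14 fits that left out a tumor: 33R (-0.26, adjusted p = 0.119), 24L (0.102), 30R (0.0921), 32R (0.0808), 17R (0.0555), 30L (0.0553) and 16R (0.0506). The genes of the α and γ subunits of eIF2, Eif2s1 (-0.37, SE 0.14, adjusted p = 0.103) and Eif2s3x (-0.13, SE 0.10, adjusted p = 0.381), were not called. Eif2s3y, the Y-linked copy of the γ gene, was listed at 0 in all 14 tumors.

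eIF2B recharges eIF2 with GTP. Of its 5 genes, 1 was lower in responders. Eif2b3 (chr4:117019402-117087306), the γ subunit, had 32.8, 36.6, 41.9, 39.2 and 43.1 CPM in control IgG, 24.3, 28.5, 33.0, 29.6 and 34.8 CPM in responders and 42.2, 41.1, 37.7 and 41.5 CPM in non-responders. In CPM, 33R lay within its group, and the groups treated with anti-PD-1 did not overlap. In TPM, 33R stood at 27.9, within the 24.0 to 33.6 of responders, and the other non-responders at 34.2 to 37.6. On the log2(TPM + 1) scale the change against non-responders was -0.19 (limma adjusted p = 0.238). The log2 fold changes were -0.44 (SE 0.10, adjusted p = 0.0221) against non-responders and -0.37 (SE 0.10, adjusted p = 0.0249) against control IgG. The first missed the threshold without 33R (-0.41, adjusted p = 0.0525), 24L (0.0515), 30R (0.0514) or 32R (0.0556). Eif2b5, the catalytic ε subunit, had a log2 fold change of -0.12 (SE 0.09, adjusted p = 0.417).

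Of the 4 kinases that phosphorylate eIF2α and so block eIF2B, 3 had log2 fold changes above 0 (median 0.119) and 1 was called. With the length trend removed 2 were above 0 and none was called (median -0.007), and without 33R the same counts held (median 0.025). Eif2ak2 (chr17:78852564-78882573), which encodes the interferon-induced, double-stranded RNA sensing kinase PKR, was the member higher in responders. It had 77.5, 74.2, 53.6, 60.3 and 61.5 CPM in control IgG, 95.1, 67.3, 92.3, 74.1 and 66.7 CPM in responders and 55.5, 55.8, 67.3 and 52.6 CPM in non-responders. The groups met, with non-responder 33L level with the lowest responders. The log2 fold change was 0.45 (SE 0.14, adjusted p = 0.0498), at the edge of the threshold, and 0.27 (SE 0.13, adjusted p = 0.178) against control IgG. The call was lost in 8 of 14 fits that left out a tumor: 24L (adjusted p = 0.125), 32R (0.112), 33R (0.106), 30L (0.1), 29L (0.0794), 30R (0.0794), 20R (0.0617) and 17R (0.0567). The other kinases were not called. Eif2ak3 (PERK, the kinase of the endoplasmic reticulum) had 0.12 (SE 0.12, adjusted p = 0.545) and Eif2ak4 (GCN2, the sensor of uncharged tRNA) -0.01 (SE 0.12, adjusted p = 0.98).

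None of the 11 tested genes of eIF4F and related cap-binding, helicase and scaffold proteins was called in either comparison. Eif4e, the cap-binding protein, had a log2 fold change of -0.25 (SE 0.13, adjusted p = 0.217) against non-responders. The helicase genes Eif4a1 (-0.05, SE 0.09) and Eif4a2 (-0.37, SE 0.18) and the scaffolds Eif4g1 (0.20, SE 0.14) and Eif4g2 (-0.15, SE 0.08) had adjusted p of 0.785, 0.204, 0.375 and 0.219. Eif4b, a helicase cofactor listed here as a TOP mRNA, had -0.03 (SE 0.08, adjusted p = 0.845) and 232.1 to 294.3 CPM in all 14 tumors. Eif4e3, a cap-binding relative, had the largest value after Eif2ak2 among members above the level set for naming, at 0.41 (SE 0.14, adjusted p = 0.0803).

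The proteins that hold eIF4E away from the cap complex did not move together. Eif4ebp1 (chr8:27260329-27276674), the mTORC1 substrate 4E-BP1, was lower in responders than in non-responders, with 191.4, 231.5, 253.8, 269.5 and 252.4 CPM in control IgG, 192.6, 200.8, 241.1, 193.4 and 197.0 CPM in responders and 262.9, 319.1, 227.6 and 336.9 CPM in non-responders. Responder 30L overlapped the non-responders. The log2 fold change was -0.48 (SE 0.12, adjusted p = 0.0284), and -0.23 (SE 0.12, adjusted p = 0.231) against control IgG. The call was lost without 33R (-0.38, adjusted p = 0.085), 32R (0.081), 24L (0.0737), 30R (0.0693) or 35L (0.0533). Its paralog Eif4ebp2 had 140.4, 111.3, 137.1, 139.4 and 128.4 CPM in control IgG, 166.1, 170.2, 162.2, 180.8 and 165.5 CPM in responders and 161.8, 136.6, 145.7 and 78.8 CPM in non-responders. Every responder was above every other tumor for Eif4ebp2, narrowly so over non-responder 29L, yet the log2 fold changes of 0.37 (SE 0.15, adjusted p = 0.134) and 0.36 (SE 0.14, adjusted p = 0.114) were not called. Without 33R, Eif4ebp2 passed against control IgG (0.37, adjusted p = 0.00401) and not against non-responders (0.21, adjusted p = 0.163).

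The factors of start-site selection, subunit joining and eIF5A gave 10 tested genes, none of them called in either comparison. Eif1 had a log2 fold change of -0.40 (SE 0.13, adjusted p = 0.0576), Eif1ax -0.29 (SE 0.12, adjusted p = 0.139) and Eif5, which triggers GTP hydrolysis by eIF2, -0.30 (SE 0.12, adjusted p = 0.109). Eif5a, which relieves ribosomes stalled on proline stretches, had -0.34 (SE 0.12, adjusted p = 0.0879). Eif5b (0.01, SE 0.12) and Eif6 (-0.19, SE 0.08), which act on the large subunit, had adjusted p of 0.961 and 0.15.

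**Figure D2:**
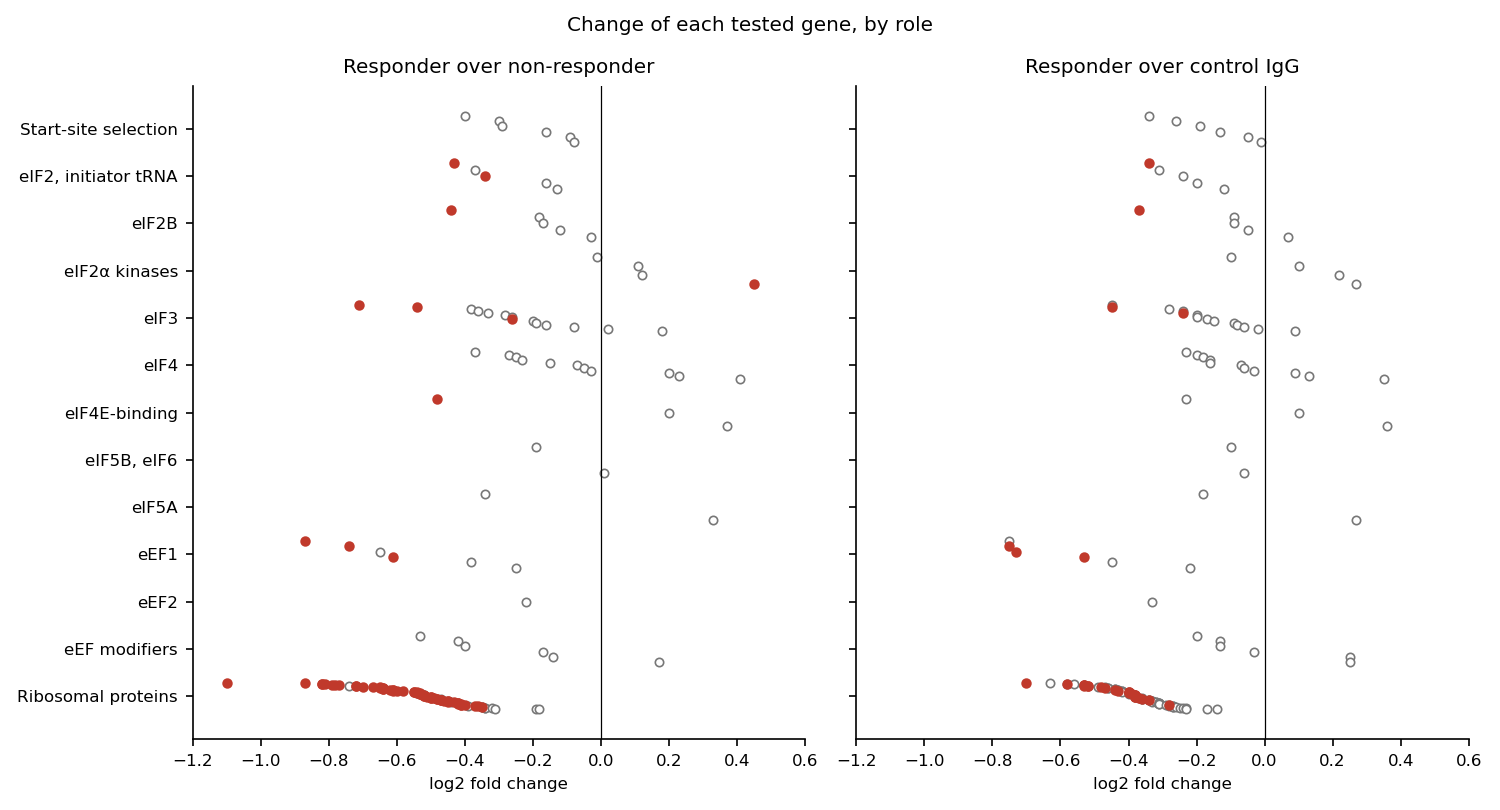
Log2 fold change of each tested member by role and of 77 ribosomal protein genes (rows), in responders over non-responders (left) and over control IgG (right). Each point is 1 gene, filled red points passed the edgeR test at an adjusted p under 0.05, and open points did not. The ribosomal protein genes lie entirely below 0 in both panels, and the member with the lowest value in each panel is an eEF1 gene.

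Against control IgG, 7 members were lower in responders and none was higher, where 5.3% of all genes were called lower and 7.88% higher. All 7 were among the 10 that were lower than in non-responders: Eef1b2, Eef1g, Eef1a1, Eif3e, Eif3f, Eif2b3 and Eif2a. The same responder tumors enter both comparisons. The median log2 fold change was -0.133 beside -0.011 for all genes, and responders lay below every control IgG tumor for 10 members (6.72% of all genes). Leaving 33R out of the fit gave 14 lower and 2 higher members (9.31% of all genes called lower and 11.2% higher), and 9 of the 10 members lower than in non-responders were then lower than in control IgG. Tumor 33R is in neither of these groups, and the median without it was -0.129. The 3 groups share an estimate of the spread in this fit. The count of lower members fell to 2 without 24L, 30R or 20R and to 3 without 17R, fits for which the share of all genes is not given.

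By the members, non-responders were not distinguished from control IgG tumors. No member was called by edgeR (0.0% of all genes), and 2 had an unadjusted p under 0.05 against 758 of all 16287 genes. DESeq2 called no member either, but called 18 of all genes. The median log2 fold change was 0.067 beside 0.006 for all genes. Without 33R it was -0.016, with 38 members below 0 in place of 25.

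The ribosomal protein genes, which are shorter (345 to 1810 bases, median 728) than the members (773 to 5648 bases, median 2024), were all below 0 in responders against non-responders, with 60 of 77 called lower and a median of -0.52 (11 called and -0.296 without 33R). Against control IgG, 24 were lower and the median was -0.381. The translation factors shared the sign of this difference at a smaller size, and unevenly. The 9 members listed as TOP mRNAs (Eef1a1, Eef1b2, Eef1d, Eef1g, Eef2, Eif3e, Eif3f, Eif3h and Eif4b) had a median of -0.544, with 6 called lower. The other 56 members had a median of -0.166, with 4 lower and 1 higher. Without 33R the medians were -0.354, with 2 called lower, and -0.097, with none called. The TOP list was drawn up with results of these tumors known, and its eIF3 entries are the eIF3 genes called here. Its contrast with the other members is therefore no independent evidence of direction, size or number called. Of the list, Eef1a1 and Eif3f had the pyrimidine run at an annotated start and Eef1b2, Eef2 and Eif4b did not. Eef1d, Eef1g, Eif3e and Eif3h had no entry in the promoter table. On the log2(TPM + 1) scale, where the median of all genes moved to 0.169, the medians were 0.049 for the members, -0.28 for the 9 TOP mRNAs and -0.234 for the ribosomal proteins, so that the sign of the members' median turned while it stayed below that of all genes.

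Among the members, the difference followed gene length. Over the 65 tested genes the log2 fold change in responders over non-responders correlated with log2 length (Pearson's r = 0.59, Spearman's rho = 0.55, across genes, which share the same 9 libraries), and over all 16287 genes Spearman's rho was 0.35. Without 33R the relation was weaker, at 0.32 by both measures over the members and 0.14 over all genes. In responders over control IgG, r was 0.44 and rho 0.41 over the members, with 33R in the fit or left out. There, rho over all genes was 0.2, and 0.19 without 33R. On the log2(TPM + 1) scale, r was 0.61 and rho 0.57 over the members in responders over non-responders. The cause of this relation was not tested. The 21 shortest members (773 to 1531 bases) had a median of -0.273 and all lay below 0. The 23 of middle length (1550 to 2652 bases) had a median of -0.293, and the 21 longest (2719 to 5648 bases) had 0.016, with 9 below 0. Without 33R these medians were -0.17, -0.116 and -0.019, with 19, 20 and 13 genes below 0. In 33R, the mean log2 CPM of the 21 shortest members was 7.70, against 7.11 to 7.33 in the other non-responders, and that of the 21 longest was 6.31 against 6.65 to 6.72.

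**Figure D3:**
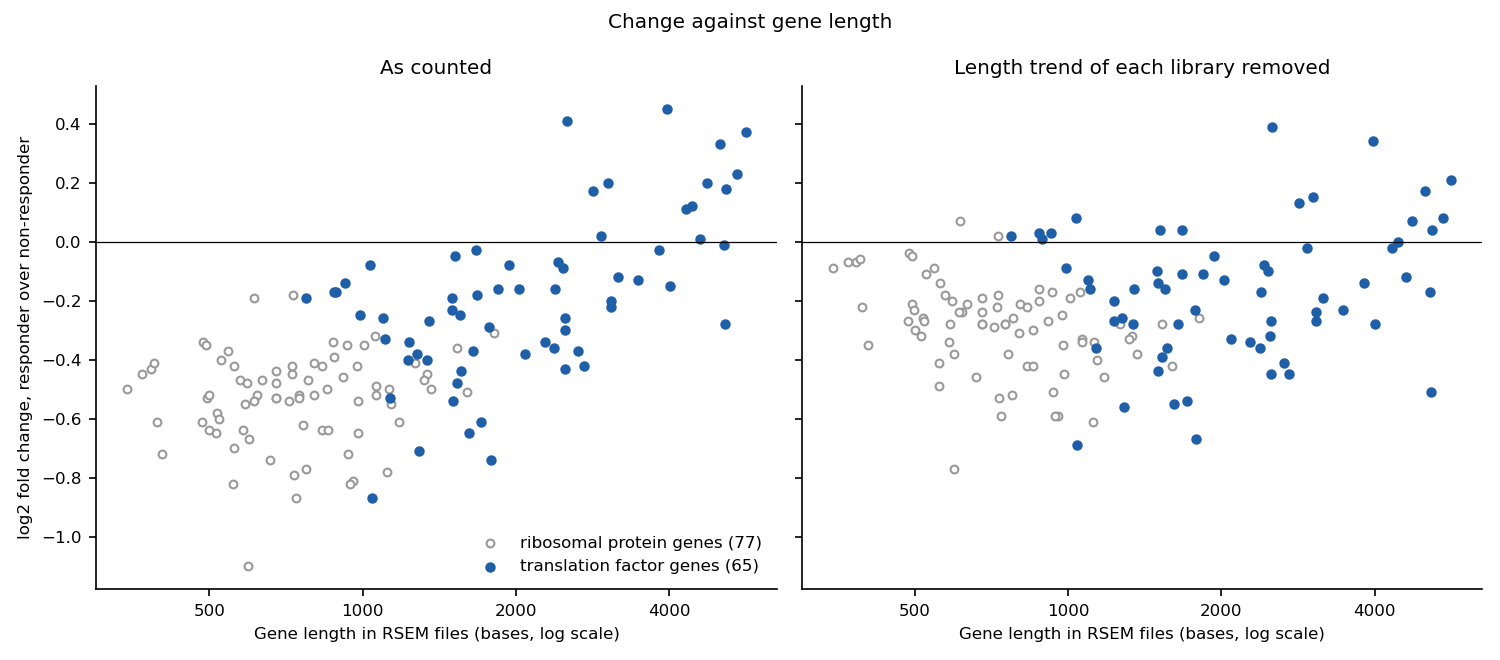
Log2 fold change in responders over non-responders (y axis) against gene length (x axis, log scale) for 65 translation factor genes (filled) and 77 ribosomal protein genes (open), as counted (left) and with the length trend of each library removed (right). As counted, the members rise from left to right and the longest lie around 0, and with the trend removed the rise is weaker (r = 0.22 in place of 0.59).

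When the trend on length was removed from each library, Pearson's r over the members was 0.22. Then 12 members were lower and none higher (6.5% of all genes were called lower), and all 10 members lower in the first fit were among them. With 33R left out as well, an alternative chosen after seeing the data, 7 were lower (3.02% of all genes). In that fit the medians of the members, the 9 TOP mRNAs and the ribosomal proteins were -0.121, -0.349 and -0.226. Of the 77 ribosomal proteins, 16 were then called. With the trend removed and 33R kept, these medians were -0.163, -0.442 and -0.275, with 40 of 77 still called. The values below keep 33R unless stated otherwise. Eef1b2 had -0.69 (edgeR adjusted p = 0.00419), Eef1g -0.67 (adjusted p = 0.00379), Eef1a1 -0.54 (adjusted p = 0.0132) and Eif3f, with 2500 bases the longest of the lower TOP mRNAs, -0.27 (adjusted p = 0.0126). Eef2 (-0.27, adjusted p = 0.0714) remained uncalled against non-responders and passed against control IgG (-0.36, adjusted p = 0.0123). Eif2ak2 was no longer called (0.34, adjusted p = 0.112). The 15 ribosomal protein genes over 1000 bases, which overlap the members in length, had a median of -0.486 as counted and -0.33 with the trend removed, against -0.273 and -0.157 for the 21 shortest members. Without 33R the values as counted were -0.277 and -0.17.

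**Figure D4:**
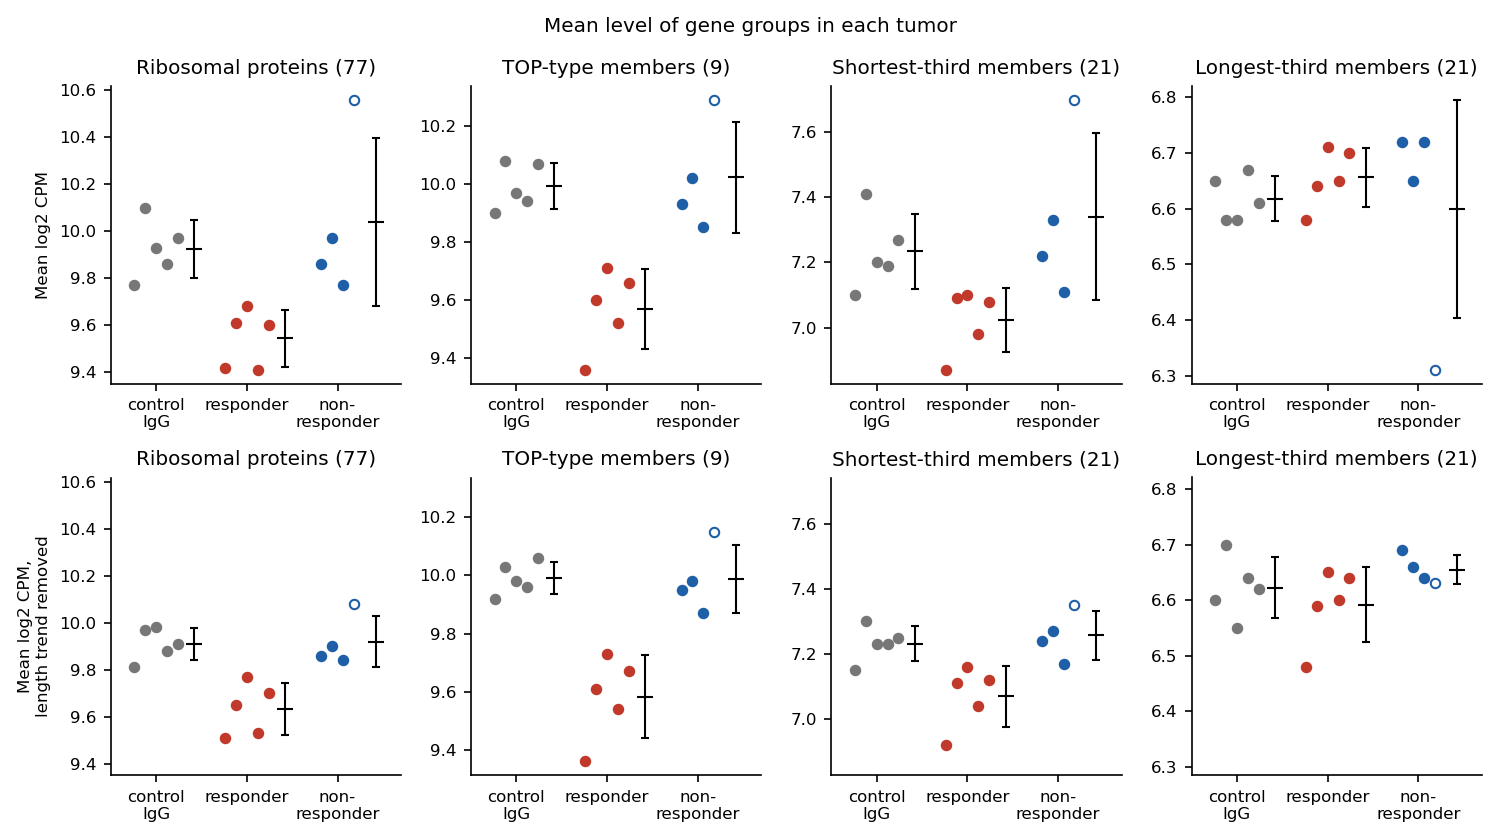
Mean log2 CPM of 4 groups of genes in each tumor (y axis), by treatment group (x axis), as counted (top row) and with the length trend of each library removed (bottom row). Points are tumors, the open point is 33R, bars are group means with SD (n = 5, 5 and 4), and the y axes do not start at 0. Responders lie below all other tumors for the ribosomal proteins and the TOP mRNAs in both rows, and 33R moves toward its group in the bottom row. The TOP list was drawn up with results of these tumors known.

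Per tumor, the mean log2 CPM of the 9 TOP mRNAs was 9.36 to 9.71 in responders, 9.90 to 10.08 in control IgG and 9.85 to 10.29 in non-responders. The ribosomal proteins gave 9.41 to 9.68, 9.77 to 10.10 and 9.77 to 10.56. In both, responders were below every other tumor, and this was so too with the length trend removed (9.36 to 9.73 against at least 9.87 for the TOP mRNAs, and 9.51 to 9.77 against at least 9.81 for the ribosomal proteins). The mean over all 65 members was 6.76 to 6.91 in responders, 6.93 to 7.14 in control IgG and 6.97 to 7.18 in non-responders, also without overlap. That of the 21 longest members overlapped, at 6.58 to 6.71, 6.58 to 6.67 and 6.31 to 6.72. The TOP mRNAs were listed with results of these tumors known, so their separation is no independent result.

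Genes that act beside these factors were read from lists drawn up by function. Of 11 termination, recycling and poly(A)-binding genes, 1 was lower in responders than in non-responders and none higher (median -0.151), with Pelo, which rescues stalled ribosomes, at -0.38 (SE 0.09, adjusted p = 0.0235) and Paip2b at -0.28 (SE 0.09, adjusted p = 0.0673). Of 22 cytosolic aminoacyl-tRNA synthetase and partner genes, 2 were lower and none higher (median -0.124): Aimp1 (-0.40, SE 0.11, adjusted p = 0.0382) and Farsb (-0.33, SE 0.10, adjusted p = 0.0446). With lists of this size, 1 or 2 calls are few to set beside the 4.82% of all genes.

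Of 15 genes known as targets of the eIF2α stress response, 5 were lower and none higher (median -0.287), where 4.82% of all genes were called lower and 5.08% higher. Ddit3, the stress transcription factor CHOP, had -0.94 (SE 0.21, adjusted p = 0.018) with 68.6 ± 21.5 CPM in control IgG (SD, n = 5), 32.4 ± 6.1 in responders (n = 5) and 62.3 ± 10.7 in non-responders (n = 4). Phgdh, an enzyme of serine synthesis, had -0.57 (SE 0.14, adjusted p = 0.027). Of 11 genes of mTORC1 and its regulators, 1 was higher and 1 lower (median 0.082). Tsc1, an inhibitor of mTORC1, had 0.49 (SE 0.14, adjusted p = 0.0383), and Rheb, its activator, -0.37 (SE 0.10, adjusted p = 0.0393). Without 33R the counts of lower genes in these 4 lists were 0, 0, 2 and 0, and their medians -0.106, -0.207, -0.301 and 0.035. In that fit 1.74% of all genes were called lower. With the length trend removed the median of the mTORC1 list was -0.017.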

How the data were processed

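RNA was sequenced from 14 CT26 tumors as poly(A)-selected, paired-end libraries. After alignment with STAR to mm10, the authors ran RSEM per gene and deposited expected counts, TPM and FPKM per gene for each tumor, without pooling. The annotation release is not given in the sources used here. The deposited TPM are scaled by effective length to the same sum in each tumor, and the deposited FPKM, scaled by length and depth, were not used. RSEM divides reads between near-identical copies, so Eef1a1, Eif4a1 and Eif4a2, Eif1 and Eif1b, Eif1a and Eif1ax, and Eif2s3x are less certain. Expected counts of Eef1g (16211.24 to 46232.44) and Eif2s2 (10891.41 to 18956.06) were also not whole numbers, a sign of divided reads. The lowest and highest counts of Eif1a, Eif1ax and Eif1b were whole numbers and gave no such sign.

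Rounded expected counts were fitted with edgeR 4.0.16 (R 4.3.3; filterByExpr, TMM, quasi-likelihood test) over all 14 tumors in 3 groups, with Benjamini-Hochberg adjustment over 16287 genes and calls at an adjusted p under 0.05. CPM shown are TMM-scaled. Totals were 33237744 to 48481461 per tumor. Gene length is the mean length in the RSEM files, and the length trend was removed per library with loess (span 0.5). Alternatives were DESeq2 1.42.0, limma 3.58.1 (voom, also with mouse as a random effect, and log2 of TPM plus 1 or 0.1), 1 library per mouse, other scalings and filters, only the groups compared, and each tumor left out. On data simulated from these tumors with 200 changed genes, edgeR recovered 92.5% (3.14% of calls false) and DESeq2 93% (16.6% false) for responders over non-responders, with 16287 and 16109 genes. The built-in changes were of size 1 or 2 on the log2 scale, of which edgeR recovered 85% and 100%. Tumors were simulated as independent and without a length trend. Every member's change was smaller (largest -0.87), so these shares do not give the recovery of such changes.

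Members and lists were chosen with earlier results of these data known. Named with values were members called in any comparison, a core list, and the 3 largest rises and falls among members with a mean log2 CPM of at least 1, and for other lists the 2 genes of lowest p. Tumors of the same mouse were treated as separate samples, so p-values measure the spread between tumors.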

Additional observations from a re-analysis of the deposited data

Results flagged for a closer look

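In 9 of 111 groups of tumors tested, 1 tumor stood further from its group than Dixon's criterion allows, where chance alone flags about 1 in 20. Non-responder 33R gave 7 of the 9. It was the highest of its group for Eef1a1 (30982.6 CPM, the others 18739.3 to 20780.1), Eef1b2 (2450.6, the others 1274.3 to 1420.3), Eif2s1 (310.8, the others 192.9 to 211.1), Eif2s3x (209.8, the others 187.3 to 189.5), Eif4a2 (302.2, the others 158.6 to 175.4) and Eef1a2 (12.2, the others 1.44 to 3.23). It was the lowest for the long Eif4g1 (327.8 CPM, the others 583.0 to 608.2). The slope of log2 CPM on length in this library was -0.232, outside the range of the other tumors. Control IgG tumor 14R had 20.0 CPM of Eef1a2 against 1.81 to 3.39 in the others of its group, and it also had the highest skeletal muscle markers (mean log2 CPM 6.72). Responder 30L had 241.1 CPM of Eif4ebp1 against 192.6 to 200.8 in the other responders. What sets these tumors apart was not tested.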

How the results depend on the processing

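For most fits below, the share of all genes called is not given. Their counts therefore do not show whether members stood out from genes in general. On the simulated data, 16.6% of DESeq2 calls and 3.14% of edgeR calls were false. Against non-responders, 10 members were lower by edgeR. The count was 17 with DESeq2, 20 with voom and mouse as a random effect, 16 with 1 library per mouse, 6 with no filter, 3 on log2(TPM + 1), 2 on log2(TPM + 0.1), 2 with only the groups compared, 19 at an adjusted p under 0.1, 7 with the length trend and 33R removed, and 2 to 17 with each tumor left out. Higher members numbered 1, and were 3 with DESeq2 and on both TPM scales, 4 with voom and mouse, 2 at an adjusted p under 0.1, 0 with voom, 1 library per mouse, no filter, the length trend removed (with or without 33R) or only the groups compared, and 0 to 2 with each tumor left out. Against control IgG, 7 were lower, and 14 with 1 library per mouse or only the groups compared, 4 with no filter, 12 with the length trend removed, 16 when 33R was also left out (chosen after seeing the data), and 2 to 14 with each tumor left out. None was higher, but 1 was with 1 library per mouse and with the length trend removed (with or without 33R), 2 with only the groups compared, and 0 to 2 with each tumor left out. No alternative called a member between non-responders and control IgG. Of all genes, DESeq2 called 18 there, the fit with no filter 3 and the fit without 35L 5.

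Ribosomal proteins lower than in non-responders numbered 60, and 20 with no filter, 18 on log2(TPM + 1), 25 on log2(TPM + 0.1), 3 with only the groups compared, 16 with the length trend and 33R removed, and 6 to 68 with each tumor left out (6 without 24L, 8 without 30R, 11 without 33R, 13 without 32R, 30 without 35L, 33 without 17R, 36 without 26R). Their median of -0.52 was -0.275 with the length trend removed, -0.234 on both TPM scales, -0.226 with the trend and 33R removed, and -0.579 to -0.296 with each tumor left out. The members' median of -0.194 was 0.049 on both TPM scales, beside all-gene medians of 0.169 and 0.235, and -0.248 to -0.107 with each tumor left out. Causes of these shifts were not tested, and for most of these fits the share of all genes called is not given. Of the named genes' values under alternatives, 846 kept their side of the threshold and, where called, their direction, 87 lost a call, 18 gained one, 48 uncalled values moved by more than the spread, some across 0 (Eef2, 0.045 on log2(TPM + 1)), and 0 called values reversed. No paired analysis was possible because the groups share no replicate numbers.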
